A study of Homo sapiens with 6 samples.

Results

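The glycolysis and hypoxia genes are 33 human genes for glucose and lactate transport, glycolytic enzymes and the hypoxia-inducible factor (HIF) response, taken from a table of 30947 genes by an exact match of the symbol. Each of the 33 symbols matched 1 gene. Their messenger RNA was measured by RNA sequencing in Cal27, an established line of human oral squamous cell carcinoma, in 3 libraries from cells with lentiviral knockdown of DAZAP1 and 3 from negative control cells. DAZAP1 is an RNA-binding protein with known roles in splicing and translation. All cells were grown in high-glucose medium with serum in a humidified incubator, and no label names a low-oxygen treatment, so both groups share these conditions. The control is described in one place as empty vector and in another as a control sequence, and no label says how many hairpins were used or whether the libraries of a group came from separate cultures. The p-values therefore measure the spread between these libraries, which may be technical. The comparison asks how the level of these messenger RNAs differs when DAZAP1 is reduced.

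Glycolysis splits glucose into pyruvate. Hexokinases trap glucose in the cell, phosphofructokinase commits it to the pathway, and a chain of enzymes from aldolase to pyruvate kinase yields ATP and pyruvate, which lactate dehydrogenase turns into lactate for export. HIF-1, a dimer of the oxygen-labile HIF1A subunit and ARNT, switches on most of these genes as well as genes for blood vessel growth, pH control and mitophagy. HIF1A is controlled above all through protein stability, by prolyl hydroxylases and the VHL ubiquitin ligase, so its messenger RNA level does not stand for its activity. Squamous carcinomas of the mouth are known for high glucose use and for expression of HIF targets.

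The libraries held 16333542 to 18955230 counts, and 15374 genes passed the filter on low counts. DAZAP1 (ENSG00000071626, chromosome 19, 1407569 to 1435687; coordinates are those of the deposited table, build GRCh38.p13) was at 262, 278 and 257 CPM in controls and 73.6, 77.8 and 67.5 CPM after knockdown, where CPM is the count scaled to library size with TMM factors. It was 3.64-fold lower in the knockdown (log2 −1.86 ± 0.0376 SE, adjusted p = 1.67e-39, edgeR). All 9 squamous epithelial markers checked were detected, with KRT5 at 1506 ± 34.1 and 2147 ± 17.4 CPM (SD, n = 3 each), and their summed level was 3282 to 3420.0 CPM in controls and 4274 to 4307 CPM after knockdown. The summed level of 6 leukocyte markers was 0.909 to 1.70 CPM in controls and 2.24 to 3.11 CPM after knockdown, with PTPRC at 2, 0 and 0 counts and 0, 0 and 1 counts. The 4 of 6 fibroblast markers in the table summed to 10.2 to 13.5 CPM and 18.8 to 19.5 CPM, and the 4 of 5 endothelial markers to 14.0 to 16.7 CPM and 46.6 to 51.8 CPM, most of it CDH5. These sums were higher in the knockdown, but the genes within them differed. Of the 9 squamous markers 5 rose (KRT5, KRT14, KRT6A, KRT17 and CDH1), EPCAM (log2 −0.09) and DSP (−0.07) fell, and TP63 and DSG3 did not pass. Of the tested markers of other cell types, CD14, COL1A1, COL1A2, PDGFRB and CDH5 rose, and LUM (log2 −0.20) and VWF (−0.74, lower in each knockdown library) did not pass. The part of these markers in the results was not tested. In bulk RNA fewer cells of a type and less RNA per cell cannot be told apart.

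Most of the glycolytic chain was lower after DAZAP1 knockdown. Of the 32 members tested, 16 fell, 6 rose and 10 did not pass the test, with 0.05 as the limit for the adjusted p. Unless another test is named, every adjusted p comes from the quasi-likelihood test of edgeR, adjusted over all genes tested by the Benjamini-Hochberg method. Of all genes tested, 54.2% passed, 27.4% with a fall and 26.9% with a rise, so the 16 falls, or 50% of the members tested, lie above the share in all genes and the 6 rises, or 18.8%, below it. The median log2 fold change (knockdown over control) was −0.22 over the members tested and 0.002 over all genes. The changes were modest: 1 member that passed, NDRG1, changed 2-fold or more. In 18 members every knockdown value was below every control value and in 8 it was above, against 29.4% and 29.5% of all genes (58.9% in either direction). The member that was not tested, the glucose transporter gene SLC2A3, had 0, 0 and 0 counts in controls and 3, 3 and 1 after knockdown, too few for a fold.

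**Figure D1:**
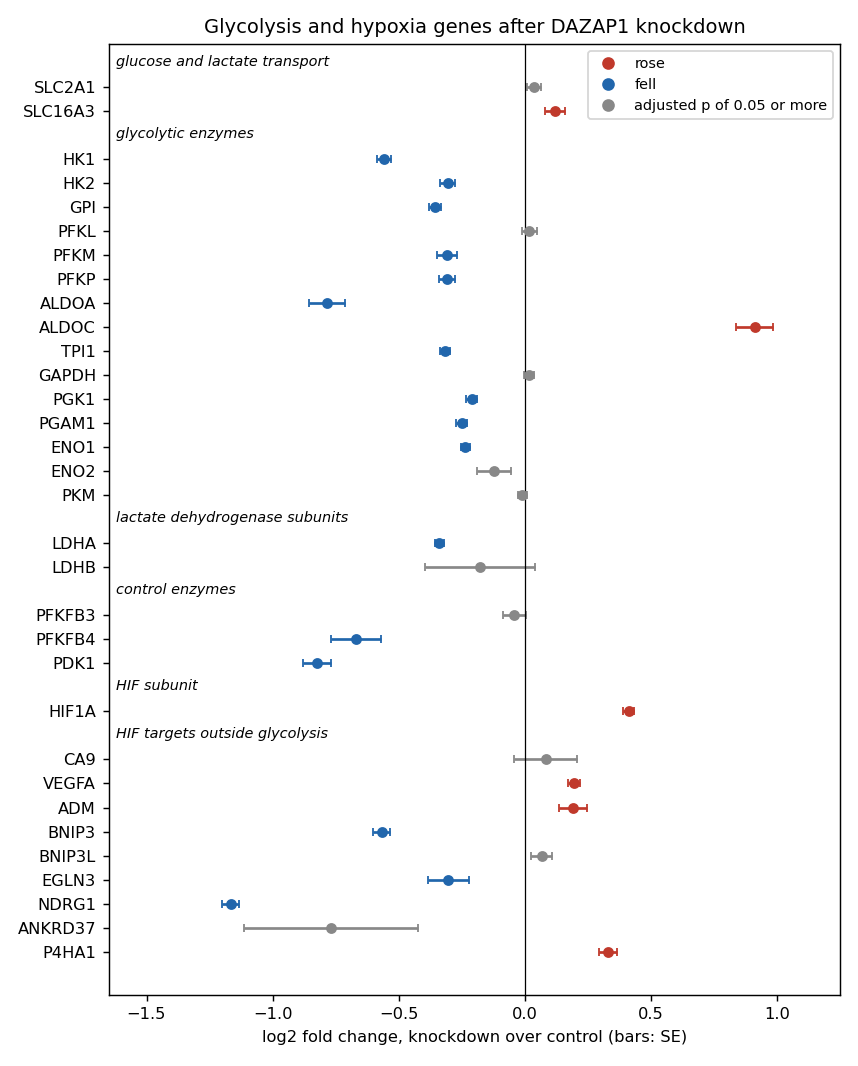
Log2 fold change of each tested member (knockdown over control, x axis; points, with bars for the SE), grouped by role and coloured by the edgeR call. Most glycolytic enzymes lie between −0.2 and −0.6, ALDOC stands apart at 0.91, and the HIF targets lie on both sides of 0, with NDRG1 lowest at −1.17.

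The transport genes at the 2 ends of the pathway moved little. SLC2A1 (ENSG00000117394, chromosome 1, 42925353 to 42958893), the main glucose importer GLUT1 of proliferating cells, was at 268, 273 and 276 CPM in controls and 281, 278 and 278 CPM after knockdown. The knockdown values lay just above the control values, and the change of 0.04 ± 0.0265 (SE) on the log2 scale did not pass (adjusted p = 0.265, edgeR). It passed with upper-quartile scaling (log2 0.08, adjusted p = 0.00606), with library size alone (0.07, adjusted p = 0.019) and with limma on log2(FPKM + 1) (0.07, adjusted p = 0.0411). SLC16A3, the lactate exporter MCT4, was at 89.4, 96.1 and 87.4 CPM in controls and 99.6, 98.7 and 97.8 CPM after knockdown. Its rise of 0.12 ± 0.0406 on the log2 scale passed (adjusted p = 0.0106, edgeR) but was lost with DESeq2 (adjusted p = 0.0869) and when control replicate 1 (adjusted p = 0.0557) or control replicate 3 (adjusted p = 0.0952) was left out. SLC16A3 shares 5.36% of its exonic bases with CSNK1D on the opposite strand, and whether strand was used in counting is not given in the sources used here. The same limit holds for GAPDH (14.2% of exonic bases), ALDOA (13.3%), ALDOC (10.1%), BNIP3L (8.96%) and PFKM (8.58%), and for CA9 and ANKRD37, given below. PDK1 shares 2.99% of its exonic and 14.3% of its coding bases on the opposite strand. On the same strand, GPI shares 10.3% of its coding bases with other annotated genes, HIF1A 5.73% and PFKP 4.58%. ALDOA and LDHB share far more, as given below. The effect of these overlaps was not tested.

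Both hexokinases fell, with the larger fold change for HK1. HK1 (ENSG00000156515, chromosome 10, 69269984 to 69401884), the widely expressed hexokinase, was at 314, 316 and 319 CPM in controls and 211, 216 and 218 CPM after knockdown. The groups lay far apart, with no overlap, and HK1 was 1.47-fold lower (log2 −0.56 ± 0.027 SE, adjusted p = 1.08e-29, edgeR). HK2 (ENSG00000159399, chromosome 2, 74834127 to 74893359), the inducible hexokinase that many tumours use, was at 208, 203 and 199.9 CPM in controls and 168, 165 and 160.3 CPM after knockdown. It was 1.24-fold lower (log2 −0.31 ± 0.0305 SE, adjusted p = 4.05e-14), and its groups did not overlap either. Per gene length, in FPKM (fragments scaled to gene length and library size), HK1 went from 49.6 ± 0.355 to 34.5 ± 0.548 and HK2 from 33.9 ± 0.634 to 28.1 ± 0.685 (SD, n = 3 each). Their sum was 83.5 ± 0.287 FPKM in controls and 62.6 ± 0.269 FPKM after knockdown.

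The next 2 steps were lower in part. GPI, which turns glucose 6-phosphate into fructose 6-phosphate, was at 547, 567 and 568 CPM in controls and 431, 439.7 and 444 CPM after knockdown, a fall of 1.28-fold (log2 −0.36 ± 0.0236 SE) with no overlap. Phosphofructokinase, the committing step, has 3 subunit genes named for platelet, muscle and liver forms. PFKP was at 209, 211 and 204 CPM in controls and 165, 165 and 174 CPM after knockdown, and PFKM at 111, 123 and 124 CPM in controls and 97.8, 95.1 and 96.6 CPM after knockdown. These forms fell by nearly the same amount, with log2 fold changes of −0.31 ± 0.0305 and −0.31 ± 0.0392 (SE), and neither overlapped between groups. PFKL was at 161, 167 and 167 CPM in controls and 167, 165 and 170.4 CPM after knockdown, its groups overlapped, and its change of 0.02 ± 0.0315 (SE) on the log2 scale did not pass (adjusted p = 0.664, edgeR).

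The aldolase genes moved in opposite directions. ALDOA (ENSG00000149925, chromosome 16, 30064164 to 30070457), the aldolase of muscle and of most tumours, was at 39.2, 39.1 and 36.8 CPM in controls and 25.6, 21.8 and 19.2 CPM after knockdown. All knockdown values were below the control values, and the knockdown libraries differed more among themselves than those of nearly all other members (coefficient of variation 14.4%). Its log2 fold change was −0.79 ± 0.0725 (SE; adjusted p = 4.6e-15, edgeR). ALDOC (ENSG00000109107, chromosome 17, 28573115 to 28576948), the aldolase first known from brain, was at 21.7, 17.6 and 20.4 CPM in controls and 37.9, 37.6 and 36.5 CPM after knockdown, and its rise was the largest among the members, 1.88-fold (log2 0.91 ± 0.0723 SE, adjusted p = 2.24e-18). The level of ALDOA is uncertain. In GENCODE release 29 a longer gene on the same strand, ENSG00000285043, shares 93.8% of the coding bases of ALDOA and 42.3% of its exonic bases, and this gene has its own row in the table, with 26, 29 and 41 counts in controls and 37, 39 and 40 after knockdown. How reads in shared bases were counted is not given in the sources used here, and the part of this overlap in the values of ALDOA was not tested.

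In the lower chain, 4 of 7 genes fell, against 27.4% of all genes. With TMM scaling, GAPDH and PKM stayed within 0.02 log2 units of 0. TPI1 (ENSG00000111669, chromosome 12, 6867119 to 6870948), the triose phosphate isomerase, was at 959.8, 932 and 957 CPM in controls and 772, 759 and 756 CPM after knockdown. PGK1, the first enzyme of the pathway that makes ATP, was at 1013, 977 and 1044 CPM in controls and 876, 867 and 878 CPM after knockdown, and PGAM1, a mutase, at 901, 913 and 935 CPM in controls and 779, 758 and 774 CPM after knockdown. ENO1 (ENSG00000074800, chromosome 1, 8861000 to 8879190), the main enolase, was at 3369, 3508 and 3482 CPM in controls and 2912, 2908 and 2968 CPM after knockdown. None of these 4 genes overlapped between groups, and their log2 fold changes were −0.32 ± 0.0213, −0.21 ± 0.0217, −0.25 ± 0.0215 and −0.24 ± 0.0183 (SE), with adjusted p-values of 6.5e-22, 1.48e-13, 7.66e-17 and 5.58e-19 (edgeR). The falls were small, 14 to 20% of the level, and several times their SE.

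GAPDH (ENSG00000111640, chromosome 12, 6534512 to 6538374), the dehydrogenase often used as a reference gene, was at 2676, 2648 and 2726 CPM in controls and 2743, 2674 and 2724 CPM after knockdown. Its groups overlapped, with a change of 0.02 ± 0.0184 on the log2 scale (SE; adjusted p = 0.483, edgeR). The value moved with the scaling: it was 0.06 with upper-quartile scaling (adjusted p = 0.00253) and 0.05 with library size alone (adjusted p = 0.0133), under which all genes had a median of 0.05 and 0.04. PKM, the pyruvate kinase that ends the chain, was at 3278, 3269 and 3337 CPM in controls and 3275, 3274 and 3266 CPM after knockdown, also with overlap (log2 −0.01 ± 0.0177 SE, adjusted p = 0.652), and its sign turned under the same scalings, at 0.04 and 0.03. PKM is best known for a choice between the splice forms PKM1 and PKM2, which counts per gene do not separate. ENO2, the enolase of neurons, was at 32.8, 31.6 and 31 CPM in controls and 27.7, 29.8 and 30.1 CPM after knockdown, lower in each knockdown library but not past the test (log2 −0.12 ± 0.0666 SE, adjusted p = 0.116). GAPDH, TPI1 and ENO2 are near neighbours on chromosome 12, all between 6534512 and 6923698, and of these TPI1 passed.

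**Figure D2:**
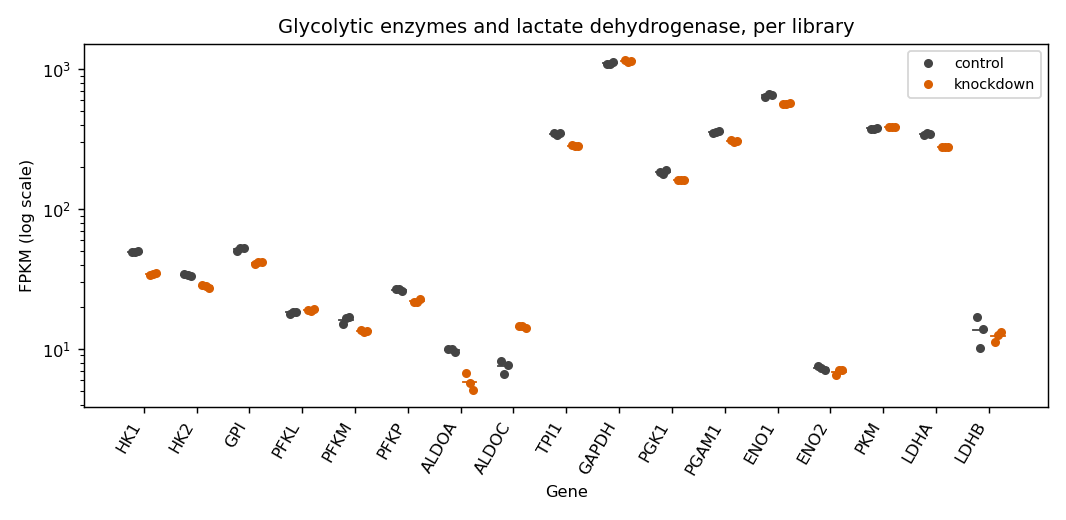
FPKM (y axis, log scale) of the glycolytic enzyme and lactate dehydrogenase genes in each library, in pathway order, with 3 control and 3 knockdown points per gene and a line at each group mean. GAPDH is highest at about 1104 and 1145 FPKM on average, the upper chain from HK1 to PFKP sits well below the lower chain other than ENO2, and both aldolase genes and LDHB are also low. The levels of ALDOA and LDHB are uncertain, because most of their coding bases are shared with another gene on the same strand.

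Per length, the genes of the lower chain other than ENO2 (mean 7.11 FPKM) were more abundant than those of the upper chain. The levels of ALDOA and LDHB are uncertain, as 93.8% and 93.5% of their coding bases are shared with another gene on the same strand. Both enter the sum over 17 genes given below. Mean FPKM over all 6 libraries was 1124 for GAPDH, 610.1 for ENO1, 382 for PKM, 331 for PGAM1, 316 for TPI1 and 173 for PGK1. It was 46.6 for GPI, 42 for HK1, 31 for HK2 and 24.3 for PFKP. The 17 genes of glycolytic enzymes and lactate dehydrogenase summed to 3574, 3582 and 3646 FPKM in the control libraries and 3347, 3302 and 3337 FPKM in the knockdown libraries. As a share of the FPKM of all genes this was 1.35 to 1.39% in controls and 1.29 to 1.30% after knockdown, so the sum was lower in every knockdown library. GAPDH, ENO1 and PKM together made up 2136 ± 25.3 FPKM of it in the control and 2098 ± 16.5 FPKM in the knockdown (SD, n = 3 each). Processed pseudogenes named after a member held few counts, at most 1.76% of those of TPI1 and 0.713% of those of GAPDH in any library. How the authors counted reads that match several copies is not given in the sources used here.

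Lactate dehydrogenase is a tetramer of A and B subunits, of which the A subunit favours lactate formation. LDHA (ENSG00000134333, chromosome 11, 18394560 to 18408425) was at 2081, 2130.2 and 2114 CPM in controls and 1671, 1664 and 1664 CPM after knockdown. The knockdown libraries were within a few CPM of each other and all below the control, and LDHA was 1.27-fold lower (log2 −0.34 ± 0.0189 SE, adjusted p = 3.39e-26, edgeR). LDHB was at 51.1, 30.9 and 41.8 CPM in controls and 33.4, 36.9 and 39.2 CPM after knockdown, with the control libraries spread widely on both sides of the knockdown libraries. Its change of −0.18 ± 0.217 (SE) on the log2 scale did not pass (adjusted p = 0.55). Without control replicate 2 it was −0.35 and passed (adjusted p = 0.000135), and without control replicate 1 it was about 0 (adjusted p = 1.0). Like ALDOA, LDHB shares most of its coding bases, 93.5%, with another gene on the same strand, ENSG00000285854, which had 1, 0 and 1 counts in controls and none after knockdown. The effect of this overlap on the level of LDHB was not tested.

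Of the 3 control enzymes, PDK1 and PFKFB4 fell. PDK1 (ENSG00000152256, chromosome 2, 172555373 to 172608669) is the kinase that shuts pyruvate dehydrogenase and so keeps pyruvate out of the citric acid cycle, and it is a classic HIF-1 target. It was at 57.9, 57.3 and 59.7 CPM in controls and 32.5, 34.2 and 32 CPM after knockdown, 1.77-fold lower (log2 −0.82 ± 0.0555 SE, adjusted p = 6.54e-22, edgeR), with each knockdown library far below the control. The PFKFB enzymes set the level of fructose 2,6-bisphosphate, the activator of phosphofructokinase. PFKFB4 was at 17.9, 15.4 and 19 CPM in controls and 10.5, 10.6 and 11.8 CPM after knockdown, 1.59-fold lower (log2 −0.67 ± 0.1 SE, adjusted p = 2.77e-08). PFKFB3 was at 71.3, 76.6 and 77.4 CPM in controls and 73.5, 74.5 and 70.9 CPM after knockdown, with overlap and no call (log2 −0.04 ± 0.0451 SE, adjusted p = 0.455). PFKFB4 shares 4.73% of its exonic bases with UCN2 on the same strand, which was at 4.65, 5.24 and 3.70 CPM in controls and 1.72, 1.99 and 3.27 CPM after knockdown.

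Whether 2 genes of a pair changed by different amounts was asked of their FPKM ratio in each library, for 9 pairs, by a two-sided exact permutation test, which with 3 libraries against 3 cannot give a p below 0.1. For 6 of the 9 pairs the ratios of the groups did not overlap (exact permutation p = 0.1, adjusted p = 0.15 over the 9 pairs), so none can be called different by this test. The share of HK1 in the summed hexokinase FPKM went from between 58.74 and 59.98% in controls to between 54.15 and 56.11% after knockdown. PFKL made up 29.7 to 30.1% of phosphofructokinase FPKM in controls and 34.8 to 34.9% after knockdown, while the ratios of PFKM to PFKP overlapped between groups (log2 −0.71 ± 0.0992 and −0.71 ± 0.0457, SD, n = 3 each; exact permutation p = 1.0). ALDOC held 39.8 to 44.8% of aldolase FPKM in controls and 68.5 to 73.6% after knockdown, with the limit on ALDOA given above. PFKFB3 held 79.9 to 83.3% and 85.8 to 87.6% of the pair with PFKFB4. ENO1 held 98.8 to 98.9% of enolase FPKM in controls and 98.8 to 98.9% after knockdown, and LDHA 95.3 to 97.2% and 95.5 to 96.1% of lactate dehydrogenase FPKM, with overlap between the groups in both. The share of LDHA rests on the level of LDHB, which has the limit on shared bases given above.

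**Figure D3:**
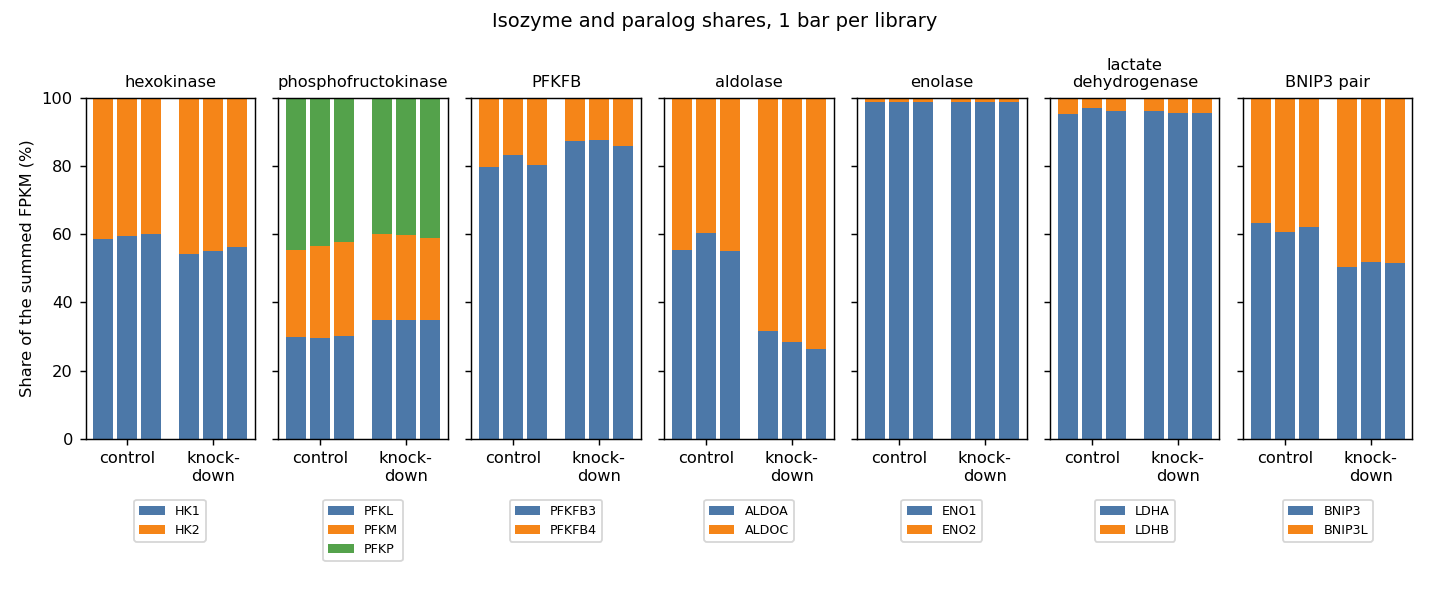
Share (y axis, %) of each gene in the summed FPKM of its set, 1 stacked bar per library, 3 control and 3 knockdown bars per set. The aldolase bars change most, with ALDOA going from 55.2 to 60.3% to 26.4 to 31.5%, and the bars of BNIP3 and BNIP3L come close to equal in the knockdown. The levels of ALDOA and LDHB are uncertain, because most of their coding bases are shared with another gene on the same strand.

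HIF1A rose while its target genes split. HIF1A (ENSG00000100644, chromosome 14, 61695513 to 61748259), the oxygen-regulated subunit of HIF-1, was at 512, 504 and 531 CPM in controls and 686, 691 and 679 CPM after knockdown. Each knockdown library lay well above the control, and the rise was 1.33-fold (log2 0.41 ± 0.0229 SE, adjusted p = 3.66e-26, edgeR). Of the 9 HIF targets outside glycolysis, 3 rose, 3 fell and 3 did not pass, with 26.9% of all genes rising and 27.4% falling.

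NDRG1 (ENSG00000104419, chromosome 8, 133237175 to 133302022), a hypoxia- and stress-responsive gene also known as a suppressor of metastasis, fell most of all members. It was at 217, 217 and 212 CPM in controls and 97.6, 97.6 and 92.6 CPM after knockdown, 2.24-fold lower (log2 −1.17 ± 0.0333 SE, adjusted p = 2.36e-43, edgeR). The groups were separated by more than 100 CPM. BNIP3 (ENSG00000176171, chromosome 10, 131966455 to 131982013), a mitochondrial receptor for mitophagy, was at 179, 169 and 177 CPM in controls and 117, 120.3 and 117 CPM after knockdown, 1.48-fold lower (log2 −0.57 ± 0.0335 SE, adjusted p = 7.07e-25). Its relative BNIP3L, which has the same role, was at 80.9, 85.5 and 84.2 CPM in controls and 89.1, 87.2 and 86 CPM after knockdown, slightly above the control in each knockdown library but not past the test (log2 0.07 ± 0.0418 SE, adjusted p = 0.179). It passed with upper-quartile scaling (log2 0.11, adjusted p = 0.0164) and with library size alone (0.10, adjusted p = 0.0332). BNIP3 held 60.7 to 63.3% of the summed FPKM of the pair in controls and 50.5 to 51.8% after knockdown (exact permutation p = 0.1 for the ratio, the smallest that 3 against 3 libraries allow). EGLN3, a prolyl hydroxylase that marks HIF for destruction and is itself a HIF target, was at 22.6, 24.1 and 24.2 CPM in controls and 18.7, 20.8 and 17.9 CPM after knockdown (log2 −0.30 ± 0.0816 SE, adjusted p = 0.00108), a smaller fall with no overlap. The annotated span of EGLN3 holds SPTSSA on the same strand, with no shared exonic bases in GENCODE release 29, at 114 ± 6.12 and 79.2 ± 1.65 CPM (SD, n = 3 each).

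The 3 targets that rose were VEGFA, P4HA1 and ADM. VEGFA (ENSG00000112715, chromosome 6, 43770184 to 43786487), the vascular growth factor, was at 490.3, 516 and 506 CPM in controls and 575, 586 and 571 CPM after knockdown (log2 0.19 ± 0.0234 SE, adjusted p = 3.56e-11, edgeR). P4HA1, the collagen prolyl hydroxylase, was at 119, 114 and 127 CPM in controls and 148, 156 and 148 CPM after knockdown (log2 0.33 ± 0.0359 SE, adjusted p = 1.78e-12). ADM, the vasodilator peptide adrenomedullin, was at 41.6, 39.5 and 40.9 CPM in controls and 47.3, 46.3 and 45.4 CPM after knockdown (log2 0.19 ± 0.0556 SE, adjusted p = 0.00283). In all 3 the knockdown libraries lay above the control libraries, by 14.0 to 25.5% on average. Among the other HIF targets described below, 11 of 29 rose and 9 fell (37.9% and 31.0%, against 26.9% and 27.4% of all genes). P4HA2, a relative of P4HA1, fell (log2 −0.43, adjusted p = 7.27e-19, edgeR). LOXL2 fell as well (log2 −0.30), while LOX rose (0.53).

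CA9, the carbonic anhydrase often used as a marker of hypoxia, was low in both groups, with 158, 142 and 149 counts in controls and 154, 141 and 146 after knockdown, and did not pass (log2 0.08 ± 0.125 SE, adjusted p = 0.604, edgeR). It shares 38.5% of its exonic bases with ARHGEF39 on the opposite strand, which was at 6.39 ± 0.442 and 13.7 ± 0.899 CPM (SD, n = 3 each). ANKRD37 had 44, 23 and 23 counts in controls and 18, 18 and 13 after knockdown. Its change missed the threshold (log2 −0.77 ± 0.345 SE, adjusted p = 0.053). It passed without control replicate 2 (adjusted p = 0.028) or control replicate 3 (adjusted p = 0.029) and with a stricter filter on low counts (adjusted p = 0.0342), and it shares 35.2% of its exonic bases with UFSP2 on the opposite strand.

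**Figure D4:**
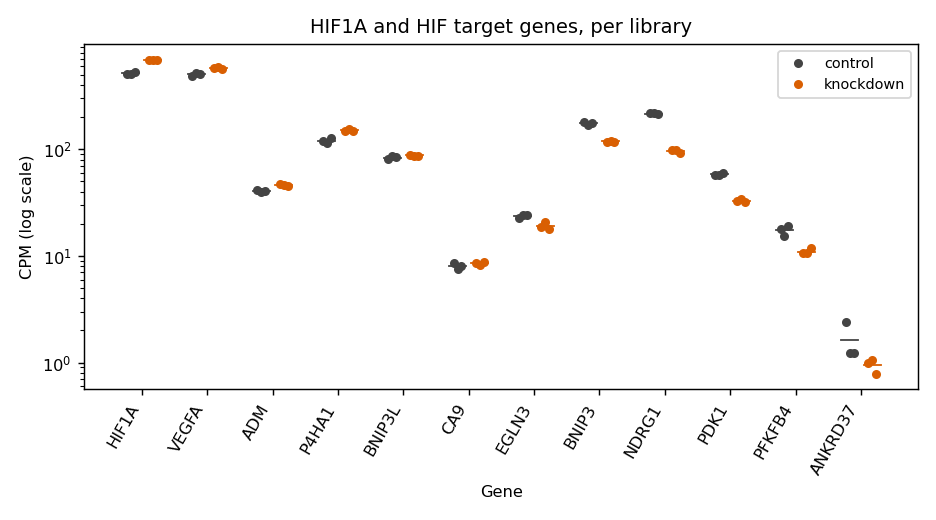
CPM (y axis, log scale) of HIF1A and HIF target genes in each library, 3 control and 3 knockdown points per gene with a line at each group mean. HIF1A, VEGFA, ADM and P4HA1 are higher in the knockdown, while EGLN3, BNIP3, NDRG1, PDK1 and PFKFB4 are lower, with NDRG1 going from about 215 to 95.9 CPM.

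HIF binds a short core, ACGTG or GCGTG, within hypoxia response elements, and the core ACGTG lies also inside CACGTG, the E-box bound by MYC and carbohydrate-response factors. RefSeq promoters (build GRCh38.p14, 250 bases before to 50 after 1 start per gene) were matched by symbol for 29 of the 33 members; SLC2A3, VEGFA, BNIP3L and NDRG1 were not analysed here. Searched on both strands, ACGTG was found in 12 of 29 member promoters (41.4%) and in 21.6% of 27305 promoters of the same length, GCGTG in 48.3% and 36.3%, and CACGTG in 17.2% and 7.43%. ACGTG was present in 6 of 15 members that fell, in 2 of 5 that rose and in 4 of 9 that did not pass. The first match in 8 of these promoters is shown, 5′ to 3′ on the strand of the gene, because these members moved in different directions while holding the same core; capitals mark the match to ACGTG or its reverse complement CACGT. HK2, GPI, PGK1, LDHA and BNIP3 fell, ALDOC and P4HA1 rose, and CA9 did not pass.
HK2, chr2:74833888-74833912, plus strand: ccacggaccaCACGTcccatctcag
GPI, chr19:34364820-34364844, plus strand: actgcctgtaACGTGgaaggtgttc
PGK1, chrX:78104036-78104060, plus strand: ggcgtgccggACGTGacaaacggaa
LDHA, chr11:18394368-18394392, plus strand: actcccagcgCACGTggagcagtct
BNIP3, chr10:131982043-131982067, minus strand: gcacgcgccgCACGTgccacacgca
ALDOC, chr17:28577121-28577145, minus strand: aagtgcccggCACGTggtaaaggga
P4HA1, chr10:73096938-73096962, minus strand: tgatcgagctCACGTagcgagggct
CA9, chr9:35673900-35673924, plus strand: gtttccaatgCACGTacagcccgta
In BNIP3, LDHA and ALDOC the match shown is part of a CACGTG. A match is a description of letters and does not show that a factor binds there.

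The rest of glucose metabolism was not uniformly lower. These lists were put together with earlier results of these data known, and their counts are descriptions. Of 7 tested genes among other glycolytic isozymes and side enzymes, 4 fell and 1 rose (57.1% and 14.3%, against 27.4% and 26.9% of all genes). PFKFB2, another PFKFB form, went from 77.7 ± 2.74 to 54.5 ± 1.56 CPM (mean ± SD of 3 libraries; log2 −0.51), and ADPGK, an ADP-using glucokinase, rose from 69.4 ± 6.42 to 114 ± 2.62 CPM (log2 0.71). HKDC1, a hexokinase-like gene, fell at few counts, 50, 64 and 45 in controls and 37, 24 and 23 after knockdown, and the phosphatase PGP fell by 0.20 on the log2 scale, a call lost without control replicate 1 (adjusted p = 0.0639, edgeR) and with limma on log2(FPKM + 1) (adjusted p = 0.0685). Among 8 tested transporters 2 rose and 3 fell. The glucose transporter genes SLC2A12 (log2 2.0, from 3.42 ± 0.597 to 13.7 ± 1.46 CPM) and SLC2A6 (log2 0.61) rose, and the lactate transporter SLC16A1 (log2 −0.12) and its chaperone BSG (log2 −0.09) fell slightly. The call of BSG was lost with upper-quartile scaling (adjusted p = 0.0873, edgeR) and with limma on log2(FPKM + 1) (adjusted p = 0.0916), and that of SLC16A1 with the latter (adjusted p = 0.0552).

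In the pentose phosphate pathway, the branch that yields NADPH and ribose, 6 of 10 tested genes rose and 3 fell, with a median log2 fold change of 0.11. H6PD, an enzyme of the endoplasmic reticulum, rose from 36.9 ± 1.65 to 72.3 ± 3.76 CPM (log2 0.97 ± 0.053 SE, adjusted p = 1.07e-26, edgeR) and TKT, a transketolase, by 0.19, while PRPS1, which makes phosphoribosyl pyrophosphate, fell by 0.55 on the log2 scale. For glycogen and UDP-glucose enzymes, 8 of 13 fell and 2 rose (61.5% and 15.4%, against 27.4% and 26.9% of all genes, median −0.23). The phosphomutase PGM2 (log2 −0.65), the branching enzyme GBE1 (−0.56), the glycogen phosphorylase PYGL (−0.27) and the synthase kinase GSK3A (−0.34) fell.

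Genes of pyruvate entry into the mitochondrion and of pyruvate dehydrogenase rose in 7 of 13 cases and fell in 3 (53.85% and 23.08%, against 26.9% and 27.4% of all genes, median 0.15). PCK2, the mitochondrial phosphoenolpyruvate carboxykinase, rose from 20.7 ± 0.0877 to 43.3 ± 1.98 CPM (mean ± SD of 3 libraries; log2 1.07 ± 0.0664 SE), PC, pyruvate carboxylase, by 0.50 and PDP1, the phosphatase that counters PDK1, by 0.21 on the log2 scale, and DLD, a shared dehydrogenase subunit, fell by 0.31. In the citric acid cycle 10 of 17 genes fell and 2 rose (58.8% and 11.8%, against 27.4% and 26.9% of all genes, median −0.19). The succinyl-CoA ligase subunit SUCLA2 (log2 −0.75), citrate synthase CS (−0.30) and malate dehydrogenase MDH2 (−0.29) fell, and OGDH, a subunit of oxoglutarate dehydrogenase, rose (0.43).

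Among genes of oxygen sensing and HIF control, 6 of 15 fell and 2 rose (40.0% and 13.3%, against 27.4% and 26.9% of all genes, median −0.08). EPAS1, which encodes HIF2A, fell from 244 ± 8.22 to 196 ± 3.10 CPM (mean ± SD of 3 libraries; log2 −0.32 ± 0.0291 SE, adjusted p = 1.84e-15, edgeR), in the direction opposite to HIF1A. Of the 5 listed components of the VHL ubiquitin ligase, ELOC (log2 −0.57), RBX1 (−0.42) and ELOB (−0.22) fell, while VHL itself (log2 0.02, adjusted p = 0.85, edgeR) and CUL2 (log2 −0.03, adjusted p = 0.699) did not pass. In the list of other HIF targets, 11 of 29 genes rose and 9 fell (37.9% and 31.0%, against 26.9% and 27.4% of all genes, median 0.11). DDIT4, an inhibitor of mTOR signalling, went from 219 ± 1.02 to 393 ± 10.5 CPM (log2 0.84) and IGFBP3, which binds insulin-like growth factors, from 872 ± 3 to 1261 ± 14.7 CPM (0.53). ANGPTL4, a lipoprotein lipase inhibitor, went from 54 ± 2.51 to 3.61 ± 0.293 CPM (−3.90). Of 11 glucose-sensing and MYC regulators 6 fell and 2 rose (54.55% and 18.18%, against 27.4% and 26.9% of all genes, median −0.15). ARRDC4 (log2 −0.92) and TXNIP (−0.20), arrestin-like genes induced by glucose through carbohydrate-response factors, and the AMPK subunit PRKAA1 (−0.21) fell, and MXD1, a partner of MAX, rose (0.34).

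**Figure D5:**
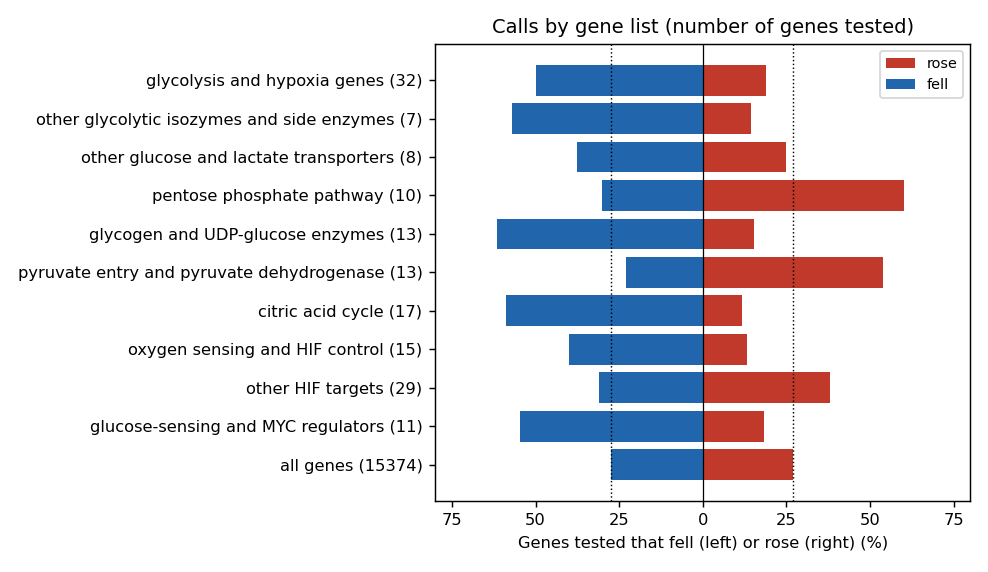
Share of tested genes (x axis, %) that fell (left) or rose (right) in each gene list, with the number tested in brackets and dotted lines at the shares in all genes, 27.4% and 26.9%. The glycolysis and hypoxia genes lean to falls at 50%, as do the glycogen, citric acid cycle and several other lists, and the pentose phosphate and pyruvate entry lists lean to rises.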

How the data were processed

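Per gene, the authors deposited raw counts and, separately, FPKM. The submitters' processing notes name Bowtie and the build GRCh38.p13, without saying what Bowtie was used for. The sources used here give no counter, annotation or strandedness. Columns were matched to samples by prefix and number (N for control, SH for knockdown), and 0 columns of values were left unused.

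The counts were fitted with edgeR 4.0.16 (R 4.3.3): filterByExpr (minimum count 10), TMM scaling (factors 0.9874 to 1.0132), glmQLFit (robust) and glmQLFTest with group as the only term, on all 15374 genes that passed, with Benjamini-Hochberg adjustment and a threshold of 0.05. The fit was also run on simulated counts, drawn with the same coefficient of variation for every gene. That run does not bear on the calls in these data. SE values are the log2 fold change divided by the square root of F. The biological coefficient of variation was 3.13%. The precision rests on the counts, with library totals of 16333542 to 18955230, and on the spread between the libraries of a group. FPKM was used for levels between genes. Exon overlap came from GENCODE release 29.

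The members, lists and tests were chosen with earlier results of these data known. Values per library were given for members that passed with an absolute log2 fold change of at least 0.3, for HIF1A, for isozyme pairs and for the most abundant member of each role; most other members are given in the same way. Up to 4 genes of each other list with the smallest adjusted p were named, and 2 genes chosen by this rule are not reported here. Other genes were chosen after their values were seen. The alternatives were DESeq2 1.42.0, 3 other scalings, 2 other filters, limma 3.58.1 (voom, and on log2(FPKM + 1) and log2(FPKM + 0.1)), the replicate number as a block and each library left out. A gene length and a GC content trend removed were added after the data were seen.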

Additional observations from a re-analysis of the deposited data

How the results depend on the processing

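Over 19 alternatives, the members that fell numbered 16 to 18 and those that rose 5 to 9, against 16 and 6. When each library was left out in turn, 16 to 18 fell and 5 or 6 rose. Of the 22 members that passed, 21 kept their direction and call under all alternatives run, and the exception was SLC16A3. Of all genes, 3163 to 4800 rose and 3277 to 4368 fell. The replicate number as a block gave 6 rises and 16 falls among the members and 4101 and 4206 among all genes. Libraries with the same number did not deviate together from their group means (correlations of 0.003, −0.001 and −0.006 for numbers 1 to 3; −0.017 to 0.018 over all 9 pairs). These values do not show whether such libraries shared a culture or a preparation.

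Members without a call changed sign as follows, and the cause was not tested. PKM was at 0.0385 with upper-quartile scaling, at 0.0256 with library size alone, and by limma at 0.0253 for each of a pseudocount of 1, a pseudocount of 0.1, and genes of a mean FPKM of at least 1. PFKFB3 was at 0.00695 with upper-quartile scaling. PFKL was at −0.0242 with a gene length trend removed and between −0.00283 and 0.0271 when a library was left out. With that trend removed, the rise of SLC16A3 was 0.07 (adjusted p = 0.116, edgeR), while GAPDH (0.05) and PKM (−0.05) passed. The change in the PFKL share was 5.22 percentage points from counts and 4.95 from FPKM. Leaving out a library moved the change in the log2 ratio of PFKM to PFKP from −0.0539 to 0.0428, and that in the ratio of LDHA to LDHB from −0.367 to 0.0129. Low counts limit ANKRD37, CA9 and SLC2A3.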

Other observations

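Some further genes stood out after their values were seen. HIF1A-AS3 (ENSG00000258667, chromosome 14, 61707564 to 61751099), an antisense gene that overlaps the span of HIF1A on the opposite strand, moved against HIF1A. It had 131, 113 and 117 counts in controls and 36, 21 and 26 after knockdown, 4.03-fold lower (log2 −2.01 ± 0.198 SE, adjusted p = 2.46e-14, edgeR quasi-likelihood test). No exonic bases of HIF1A are shared with it in GENCODE release 29, but whether strand was used in counting is not given in the sources used here.

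MLXIPL, the carbohydrate-response factor ChREBP, had 1, 0 and 1 counts in controls and 16, 14 and 14 after knockdown (adjusted p = 9.07e-07, edgeR), while ARRDC4 and TXNIP, which it is known to induce, were lower. MLXIPL stayed near the floor, at 0.85 CPM on average after knockdown. Its far more abundant relative MLXIP fell with them, from 110 ± 4.13 to 99.5 ± 1.70 CPM (mean ± SD of 3 libraries; log2 −0.15, adjusted p = 0.000561, edgeR). The part of either factor in these levels was not tested. PDK2, a relative of PDK1, had 112, 99 and 84 counts in controls and 175, 169 and 134 after knockdown (log2 0.80 ± 0.138 SE, adjusted p = 8.5e-07), a rise where PDK1 fell. VLDLR, a lipoprotein receptor gene induced in hypoxia, went from 6.02 ± 1.59 to 12.8 ± 0.637 CPM (mean ± SD of 3 libraries; log2 1.08 ± 0.132 SE, adjusted p = 1.28e-10).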
